A study of Mus musculus with 5 samples.

Results

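The 4-week kidney bud transplant was compared with the kidney of newborn mice, 1 array each, over the genes well above background on either array. Of 24563 genes with a named probe, 18445 met this condition. In 16212 of them the probe was well above background on both arrays, in 1509 on the transplant array alone and in 724 on the newborn array alone. The transplant was tissue recovered 4 weeks after a kidney bud had been transplanted, and the newborn kidney was taken at postnatal day 0 (P0). Both were of the strain C57BL/6. The series holds 3 further arrays, of the kidney at the embryonic stage E13.5, of the kidney at 8 weeks of age and of a transplant at 2 weeks. The series title describes organ buds that condense with the help of mesenchymal cells. The sources used here do not give which cells made up the buds, where they were placed, how much host tissue was recovered with them or whether animals were pooled.

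The mouse kidney is built from a mesenchyme that condenses around the tips of a branching epithelium, the ureteric bud. Mesenchymal progenitors at the tips form the nephron, from the podocytes of the glomerular filter through the proximal tubule, which recovers most of the filtrate, to the loop of Henle and distal tubule, and the ureteric bud becomes the collecting duct. At birth new nephrons are still being formed while older ones already reabsorb, so a newborn kidney expresses both progenitor and mature tubule genes. The comparison asks how far the tissue grown from a bud resembled that stage in its gene expression.

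Levels are given as log2 of a probe's processed signal relative to the 75th percentile of its array, so that a level of 0 lies at that percentile. The 75th percentile was an intensity of 1720.1 on the P0 array and 1503.9 on the transplant array, and 65.7% and 68.6% of gene spots were well above background. Both arrays lay on the same slide, and no spot on either was saturated. Over 292 probes printed as replicate spots, the difference between the arrays had a median standard deviation of 0.0457 log2 units. This is error between spots alone and leaves out labelling and animals. With 1 array per group no difference has a replicate check, and no p-value is given. In whole tissue, fewer cells of a type and less RNA per cell cannot be told apart. Among Y-linked genes, Ddx3y stood at -8.15 at P0, in the background, and at -0.06 in the transplant, and Eif2s3y stood at -7.46 and 0.71. Kdm5d, also Y-linked, was not well above background on either array. The X-linked Xist was at -0.93 and -2.88, so the transplant array held both kinds of transcript, and sex and group cannot be told apart.

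Most genes differed little. The median log2 difference, transplant minus P0, was -0.02 with quartiles at -0.60 and 0.71, and 12351 genes (67%) were within 2-fold. At least 4-fold higher in the transplant were 1597 genes (8.66% of those compared), and 804 (4.36%) were at least 4-fold lower. Of these, 488 higher and 154 lower values were bounds. A bound is used where only 1 of the 2 arrays showed a probe well above background. The dim array then enters at the lowest level well above background, -6.02 at P0 and -5.99 in the transplant, or at the probe's own value where that is higher, and the fold is written as "at least". The upper end of the distribution was longer than the lower end, with 758 genes (4.11%) at least 8-fold higher and 305 (1.65%) at least 8-fold lower, and 163 and 45 beyond 32-fold. When the arrays were scaled to their median in place of the 75th percentile, the difference of all genes moved to a median of -0.33, and the 4-fold counts became 1297 higher and 1079 lower. The share of higher genes among the called ones was then 54.6% in place of 66.5%. Genes chosen as controls for their steady expression lay close to the line of equal levels, 12 of 14 within 2-fold with a median of -0.31. Of the exceptions, the glycolytic Pgk1 was 2.56-fold lower, and the other gene was higher by 1.64 log2 units.

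**Figure D1:**
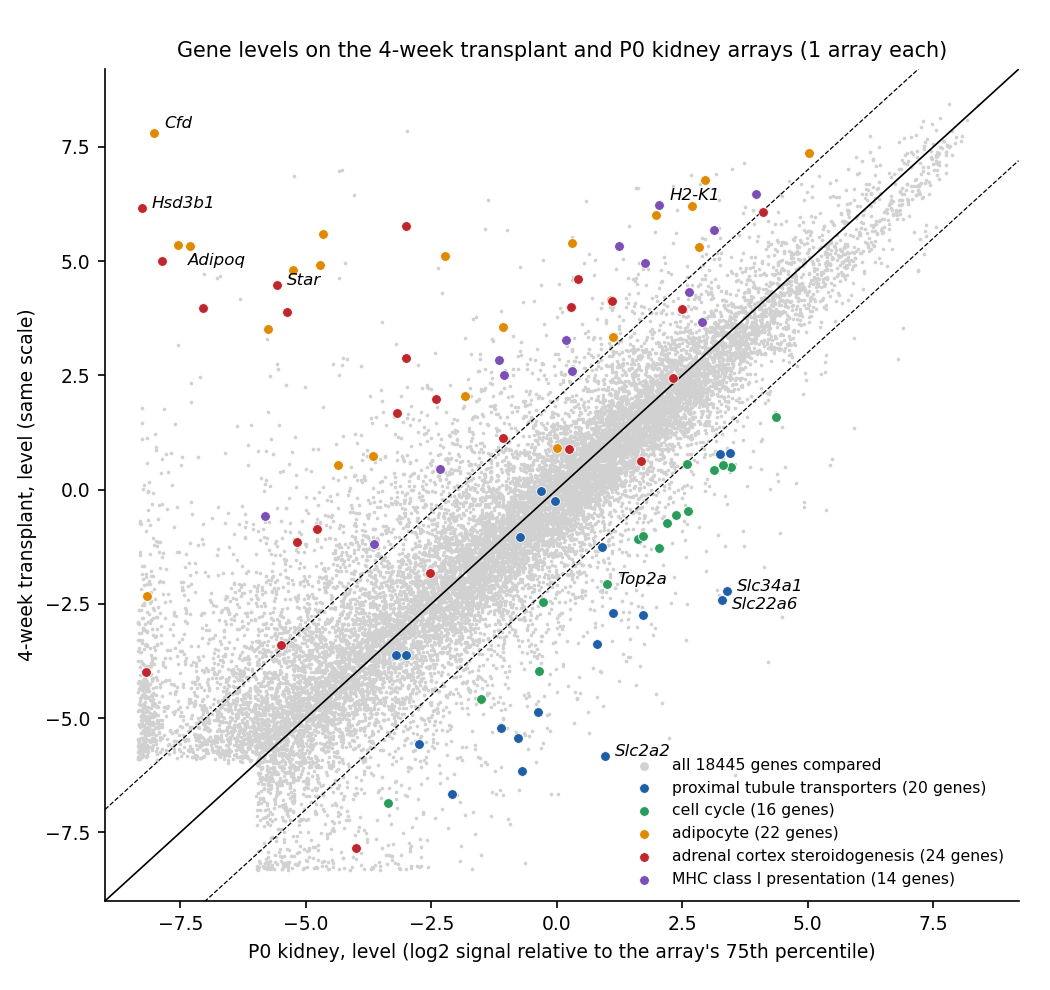
Level of each of the 18445 genes in the P0 kidney (x axis) and the 4-week transplant (y axis), as log2 signal relative to the array's 75th percentile, 1 array each; the solid line marks equal levels, the dashed lines 4-fold differences, and dim genes are drawn at their measured values. Cell cycle genes and most proximal tubule transporters lie below the line of equal levels, and genes of adipocytes and MHC class I presentation and most of adrenal steroid synthesis lie above it.

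Genes of the mature proximal tubule were far lower in the transplant than in the newborn kidney. Of 20 transporters of that segment, 15 were at least 4-fold lower and 0 at least 2-fold higher (median difference -3.87). Among all genes compared, 19.2% were at least 2-fold higher and 13.9% at least 2-fold lower. Every list count that follows is to be read beside these shares. The phosphate transporter Slc34a1 stood at 3.39 at P0 and -2.22 in the transplant, 48.9-fold lower. Slc22a6, which takes up organic anions from blood, stood at 3.29 and -2.42, 52.2-fold lower. The basolateral glucose transporter Slc2a2 was at 0.96 at P0 and not well above background in the transplant, at least 110.5-fold lower. The apical glucose transporter Slc5a2 was 14.2-fold lower, the urate transporter Slc22a12 was 17.2-fold lower, and Slc3a1, part of the cystine transporter, was 21.8-fold lower. The 5 transporters within 2-fold included the bicarbonate transporter Slc4a4 (1.25-fold lower) and the amino acid transporter Slc7a8 (1.17-fold lower). Summed over the list, the signal was 0.0701% of that of all named genes at P0 and 0.00927% in the transplant.

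Enzymes and endocytic receptors of the proximal tubule followed with exceptions. Of 26 genes, 19 were at least 2-fold lower and 4 at least 2-fold higher (median -2.23). Miox, which opens the ring of inositol, stood at 4.93 and -0.26, a 36.6-fold lower level. Fbp1 and G6pc, enzymes of glucose synthesis, were 28.3-fold and 11.6-fold lower. The protein receptors Lrp2 (megalin) and Cubn (cubilin) and their partner Amn were 16.6-fold, 13.8-fold and 27.2-fold lower, while the adaptor Dab2 was within 2-fold. The 4 higher members were Cyp2e1 (140.9-fold), Cyp4b1 (6.10-fold), Pck1 (5.48-fold) and Dpys (2.14-fold). Cyp2e1 is an ethanol-oxidising cytochrome P450 that liver and fat also express, and Pck1 starts glucose synthesis in kidney and liver and glycerol synthesis in fat. Of the wider set of organic ion transporters, 8 of 18 were at least 2-fold lower and 3 higher. Slco1a6 was 57.6-fold and Slc22a19 34.0-fold lower, and Slco1a4 was at least 10.3-fold and Slco2b1 8.77-fold higher.

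The remaining tubule segments were lower to different degrees. For the loop of Henle, 7 of 12 genes were at least 2-fold lower and 1 higher (median -1.07). The sodium-potassium-chloride transporter Slc12a1 of the ascending limb, at -1.35 and -4.44, was 8.52-fold lower. Umod (uromodulin), the main protein of normal urine, stood at 2.97 and 1.91, only 2.09-fold lower. For the distal tubule, 5 of 12 genes were lower and 2 higher. There the calcium binder Calb1 was 44.8-fold lower (its probes ranged from -5.49 to -3.49 on the log2 scale) and the thiazide-sensitive transporter Slc12a3 was 5.08-fold lower, and Klk1, tissue kallikrein, was 5.28-fold higher. Of the genes of collecting duct principal cells, 8 of 11 were lower and 0 higher (median -1.63). The water channel Aqp2 stood at 4.12 and -1.69, a 56.2-fold lower level, and Avpr2, the vasopressin receptor that acts on it, was 15.6-fold lower. Aqp4, another water channel, was 12.2-fold and the sodium channel subunit Scnn1g 3.53-fold lower.

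The intercalated cell and podocyte lists had medians above 0, and the podocyte genes differed in both directions. Of 14 genes of intercalated cells, which secrete acid or base, 10 were within 2-fold, and the median of 0.29 turned to -0.02 with scaling to the median. The ammonia channel Rhcg (5.42-fold) and the proton pump subunit Atp6v1b1 (4.01-fold) were lower, and the anion exchanger Slc26a4 (2.31-fold) was higher. Of 18 podocyte genes, 6 were at least 2-fold higher and 6 at least 2-fold lower (median 0.47). Nphs1 (nephrin), a slit diaphragm protein, was at -2.16 at P0 and -1.16 in the transplant, 2.00-fold higher, and Synpo (synaptopodin) was 2.80-fold higher. The lower members were mostly regulators of the developing glomerulus, with Wt1 4.80-fold, Cdkn1c 3.04-fold and Foxc2 2.76-fold lower. Among the basement membrane genes 8 of 12 were within 2-fold (median -0.24). Lama1, the laminin chain of the immature membrane, was 9.41-fold lower, while Col4a3, a collagen chain of the mature one, was 2.88-fold higher. Over both the tubule segments and the podocyte, 62 of 113 genes were at least 2-fold lower and 15 at least 2-fold higher, and 108 of the 113 were well above background in the transplant. Among all 18445 genes compared, all but 724 were well above background there, so this count does not set kidney genes apart.

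The transcription factors that direct tubule maturation were also mostly lower, 10 of 17 at least 2-fold (median -1.12). Hnf4a, a factor that proximal tubule genes depend on, stood at 3.71 and -0.91, 24.6-fold lower. Esrrb was 15.8-fold lower. Against the list, Ppara, a regulator of fatty acid oxidation that brown fat also expresses, was 16.9-fold higher (its probes ranged from 2.24 to 4.08), and Foxa1 was 6.05-fold higher. The genes at the far lower end of the comparison included secreted proteins better known from liver. Spp2, a secreted phosphoprotein, stood at 4.21 and -3.77, 253.8-fold lower. Serpinf2, an inhibitor of plasmin, was 202.9-fold and the lipocalin Apom 50.1-fold lower. Acsm1, a mitochondrial acyl-CoA ligase, was 87.0-fold lower. Afp (alpha-fetoprotein) stood at 3.55 at P0 and was not well above background in the transplant, at least 748.3-fold lower. On the same array, lists of fat, adrenal, immune and other genes were higher, as given further on, and their part in the lower level of the kidney genes was not tested.

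**Figure D2:**
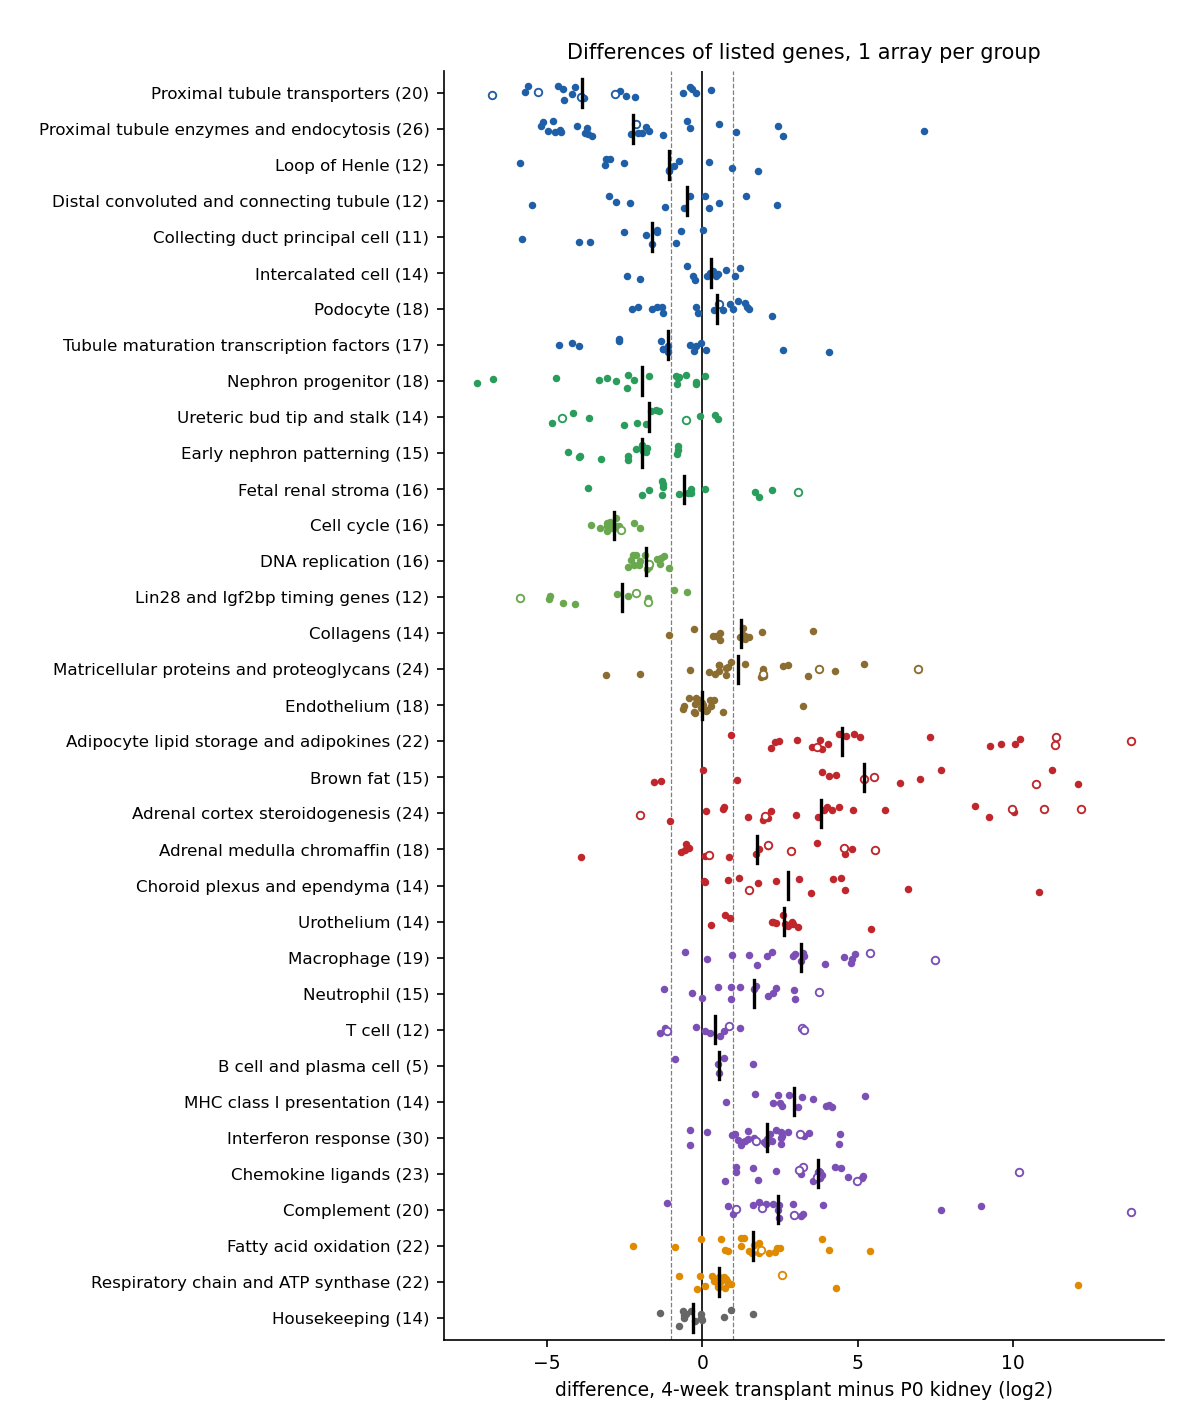
Log2 difference, 4-week transplant minus P0 kidney, of each gene in 35 of the gene lists (the number of genes compared in parentheses); filled points are measured on both arrays, open points are bounds, black bars are medians and dashed lines mark 2-fold. Medians of the proximal tubule, fetal kidney and growth lists lie to the left of 0, those of the fat, steroid synthesis and immune lists to the right, and the endothelial and housekeeping genes lie near 0.

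Progenitor and patterning genes of the forming kidney were lower in the transplant as well. Across the lists of nephron progenitors, ureteric bud and early nephron, 32 of 47 genes were at least 2-fold lower and 0 at least 2-fold higher (median -1.93). Cited1, a marker of uncommitted cap mesenchyme, stood at 4.49 and -2.78, 154.2-fold lower. Six2, which keeps progenitors undifferentiated, stood at 3.45 and 0.38, 8.38-fold lower, and a second probe of the gene gave a log2 difference of -2.92. Gdnf, the mesenchymal ligand that makes the ureteric bud branch, stood at 2.10 and -4.66, a 108.1-fold lower level. Its receptor Ret was within 2-fold (1.33-fold higher), the coreceptor Gfra1 was at least 22.9-fold lower, and Wnt11 and Etv4, which act downstream of Ret at the bud tip, were 18.1-fold and 12.6-fold lower. Eya1, Osr1 and Hoxa11, also progenitor genes, were within 2-fold.

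Early nephron genes were lower in 12 of 15 cases. Wnt4, the signal that turns mesenchyme into epithelium, was 3.41-fold lower, and Fgf8 was 15.6-fold lower. Hes5, a Notch target, was 15.5-fold and the Notch ligand Dll1 3.80-fold lower, whereas the ligand Jag1 was within 2-fold. Lhx1, needed for the renal vesicle, was 28.5-fold lower by its brightest probe (its probes ranged from -4.83 to -2.70). The Irx genes of the intermediate nephron were lower too, Irx1 20.0-fold and Irx3 4.42-fold; the probes of Irx2 disagreed, from -3.25 to 0.59. Of the posterior Hox genes 8 of 14 were lower and 0 higher, with Hoxc11 6.83-fold, Hoxd11 5.25-fold and Hoxd10 4.93-fold lower.

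Fetal renal stroma showed no single direction, with 7 of 16 genes at least 2-fold lower and 4 higher (median -0.61). Over all genes compared the shares were 13.9% lower and 19.2% higher. Aldh1a2, which makes retinoic acid, was 13.03-fold lower and its receptor gene Rarb 3.82-fold lower. The matrix protein Smoc2 was 4.75-fold, the Wnt inhibitor Dkk2 3.51-fold and the imprinted Dlk1, which preadipocytes also express, 3.26-fold higher. Foxd1, the factor that marks the cortical stroma, was within 2-fold, at -0.42 and -0.89.

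Genes of dividing cells were lower without exception in the lists used. All 16 cell cycle genes were at least 4-fold lower (median -2.86), and all 16 DNA replication genes were at least 2-fold lower (median -1.82). Top2a, which untangles DNA before mitosis, stood at 1.01 and -2.06, 8.41-fold lower, and the proliferation marker Mki67 stood at 2.59 and 0.57, 4.06-fold lower. Bub1, a spindle checkpoint kinase, was 12.1-fold lower, and among the helicase subunits that license replication Mcm5 was 5.33-fold and Mcm4 3.32-fold lower. For Cdk1 the probes ranged from -2.70 to -0.71.

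Genes that mark fetal timing were mostly lower too. Of 12 genes around Lin28 and Igf2bp, 10 were at least 2-fold lower and 0 higher (median -2.58). Igf2bp1, an RNA-binding protein of fetal tissues, was at least 58.5-fold lower, Igf2bp3 22.5-fold, Hmga2, a chromatin protein of fetal cells, 30.1-fold and Sox11 30.9-fold lower. Lin28b was at least 3.34-fold lower, and Lin28a was within 2-fold. Of the imprinted growth genes 8 of 14 were lower and 1 higher (median -1.22). Mest was 29.7-fold and H19 15.2-fold lower, Igf2, a fetal growth factor, was 2.63-fold lower, and Igf2r, which clears it, was within 2-fold.

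Fat genes included the largest positive differences. Of 22 adipocyte genes 21 were at least 4-fold higher (median 4.51), and the remaining one, Nnat, was 1.89-fold higher. Cfd (adipsin), a complement protease that adipocytes secrete, was not well above background at P0 and stood at 7.81 in the transplant, at least 14483-fold higher. Adipoq (adiponectin), an adipocyte hormone, stood at 5.36 in the transplant against -7.55, at least 2666-fold higher, and leptin (Lep) was at least 12.9-fold higher. The lipid droplet proteins Plin1 and Plin4 were 618.1-fold and 1069-fold higher, and the resistin gene Retn was 787.5-fold higher. Pparg, the master regulator of adipocyte formation, stood at -1.07 and 3.55, 24.6-fold higher. Fabp4, a fatty acid carrier also present in capillary endothelium, was already at 5.03 at P0 and 5.03-fold higher. The adipocyte list accounted for 0.0805% of the summed signal at P0 and 1.27% in the transplant.

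Genes of heat-producing brown fat belonged to this group, 12 of 15 at least 2-fold higher (median 5.21). Elovl3, also on the list, was not well above background on either array. Ucp1, the uncoupling protein that makes heat, was not well above background at P0 and stood at 4.73 in the transplant, at least 1713-fold higher. Cidea, a lipid droplet protein, stood at -4.27 and 7.0, 2486-fold higher, and Cox8b, a respiratory subunit of brown fat and muscle, stood at -5.24 and 6.87, 4418-fold higher. The beta-3 adrenergic receptor Adrb3 was 83.4-fold and the thyroid hormone deiodinase Dio2 at least 45.7-fold higher. Against the list, the coactivator Ppargc1a was 2.54-fold lower and Gk (glycerol kinase) 2.97-fold lower, and Prdm16, a regulator of brown fat identity, was within 2-fold (-1.28 and -1.24). Car3, an abundant carbonic anhydrase of fat and muscle, was 2513-fold higher.

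Genes of steroid synthesis in the adrenal cortex were the other group of extreme values. Of 24 genes 19 were higher by at least 2-fold and 2 lower (median 3.82), and their share of the summed signal was 0.0469% at P0 and 0.481% in the transplant. Star, which brings cholesterol into mitochondria, stood at -5.58 and 4.47, 1059-fold higher. Cyp11a1, which cuts the cholesterol side chain, was at least 1019-fold higher. The next enzymes of the pathway followed it, with Hsd3b1 at least 4669-fold, Cyp21a1 436.4-fold and Cyp11b1, which completes corticosterone, at least 2082-fold higher. Cyp11b2, which makes aldosterone in the outer zone, was at least 4.08-fold higher, at a level of -3.99. Nr5a1 (steroidogenic factor 1), the factor that controls these enzymes, stood at -3.01 and 2.88, 59.3-fold higher, and the ACTH receptor Mc2r and its partner Mrap were 28.9-fold and 606.7-fold higher. Akr1c18, which breaks down progesterone, was 1419-fold higher. Cyp17a1, which mouse adrenals lack after birth and gonads express, was within 2-fold, at 2.32 and 2.44, and Sult1e1 was lower by at least 4.00-fold. Cholesterol synthesis genes did not share the difference, with 11 of 14 within 2-fold, while Scarb1, the receptor that takes up cholesterol from lipoproteins, was 8.10-fold higher.

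The adrenal medulla list was higher in part, 10 of 18 genes at least 2-fold (median 1.77). Dbh, which makes noradrenaline, stood at -3.41 and 1.42, 28.5-fold higher, and the granule proteins Chga and Chgb were 24.1-fold and 13.01-fold higher. Th, the first enzyme of the pathway, was 3.31-fold higher. Pnmt, which makes adrenaline and marks the adrenaline-producing cell, was 1.6-fold lower at a level of -3.88, and the vesicle transporter Slc18a1 was 14.9-fold lower. Of 16 neuronal genes 9 were at least 2-fold higher (median 1.15), among them the cytoskeletal Prph (8.54-fold) and the synaptic Syt1 (15.2-fold). Of 14 glial genes 9 were higher and 1 lower, with S100b, which brown fat also expresses, 206.9-fold higher, and Sox10, which defines Schwann cells, within 2-fold at -3.73 and -3.67.

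The choroid plexus, the brain epithelium that secretes cerebrospinal fluid, shared a list with the ependyma, a ciliated brain lining. The genes of this list were higher in 11 of 14 cases (median 2.74), so the count is not of choroid plexus markers alone. Ttr (transthyretin), a thyroid hormone carrier also made by liver, stood at -2.99 and 7.86, 1849-fold higher. The potassium channel Kcnj13 stood at -3.90 and 2.70, 97.4-fold higher, and the potassium channel subunit Kcne2, not on the list, was at least 326.4-fold higher. Enpp2, which fat also makes, was 18.4-fold higher, and Clic6 was 8.69-fold higher. The folate receptor Folr1, which kidney tubules express too, and Otx2, a factor that choroid plexus needs, were within 2-fold, and Otx2 was at -4.06 in the transplant. The list held 0.0382% of the summed signal at P0 and 0.565% in the transplant, most of it in Ttr and Enpp2. A separate list of ciliated cell genes was higher in 8 of 10 cases (median 1.42).

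Genes of the urothelium, the lining of the renal pelvis and bladder, were higher in 11 of 14 cases and lower in 0 (median 2.63). The uroplakins, which form the apical plaques of that lining, were 8.50-fold (Upk1a), 6.82-fold (Upk1b), 6.31-fold (Upk2), 4.84-fold (Upk3a) and 4.74-fold (Upk3b) higher. Krt5, the keratin of its basal cells, stood at -2.42 and 3.00, 42.9-fold higher, and Krt20 of its surface cells was 7.38-fold higher. Keratins of simple epithelia were close to the newborn level, with Krt8 1.47-fold and Krt18 1.15-fold lower.

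Lists of several other tissues were divided, and many of their defining genes were dim on both arrays. Their small counts stand beside shares over all genes compared of 19.2% at least 2-fold higher and 13.9% lower. Of 9 liver genes compared, 4 were at least 2-fold higher and 1 lower (median 0.75). The list's share of the summed signal was 0.0198% at P0 and 0.338% in the transplant, most of it in Ttr, which the choroid plexus list also holds. Trf, the iron carrier transferrin, was 21.03-fold higher, while Alb, Apoa1 and Fgb were not well above background on either array. In the intestine list 4 of 7 were higher and 3 lower (median 1.97), with the antimicrobial lectin Reg3g at least 29.5-fold higher and Vil1 (villin), which the proximal tubule also expresses, 19.1-fold lower. Krt20 counts in this list and among the urothelial genes, and Cdx2, Fabp1, Lypd8, Muc2 and Sis were not well above background on either array. Of 9 bone genes 3 were higher and 1 lower (median 0.03). Ibsp, a protein of mineralised matrix, stood at -3.21 in the transplant and was not well above background at P0, and Dmp1, Ifitm5 and Sp7 were dim on both arrays. The bone list's share of the signal was 0.0258% and 0.066%, most of it in the collagen gene Col1a1. In skeletal muscle 3 of 12 were higher and 4 lower (median -0.46), with the myosin light chain Myl1 38.06-fold higher, and Ckm, Myh1, Myh2, Myh4, Myod1 and Myog were dim on both. Of 5 gonad genes 2 were higher and 0 lower (median 0.38), Inhba, an activin subunit, 10.4-fold and Gdf9, an oocyte growth factor, 8.64-fold, whereas Amh, Cyp19a1, Fshr, Lhcgr and Zp3 were dim on both. In the pancreas list 3 of 6 were higher and 1 lower. Ins1 was 28.2-fold and Ins2 8.11-fold higher, at levels of -1.10 and -0.29, while Pdx1, Iapp, Gcg, Ppy and Prss1 were not well above background on either array. Among the cartilage genes 5 of 13 were higher and 4 lower: Col2a1 was 45.9-fold and Col9a1 at least 26.0-fold lower, and Comp, which tendon also makes, was 68.7-fold higher.

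Matrix genes were higher while vessel genes were not. Of 14 collagen genes 8 were higher by at least 2-fold and 1 lower (median 1.26), with Col1a1 2.58-fold and Col3a1 2.46-fold, the main fibrillar collagens, and Col8a1 11.8-fold higher. Of the matricellular proteins and proteoglycans 12 of 24 were higher and 2 lower (median 1.14). The small proteoglycans Lum and Dcn, which bind collagen fibrils, were 37.2-fold and 10.6-fold higher, and the protease Mmp3 was at least 124.1-fold higher, while Fbn2, a fibrillin of fetal tissue, was 8.60-fold lower. Smooth muscle genes were within 2-fold in 10 of 13 cases, Acta2 among them. Of 18 endothelial genes 17 were within 2-fold, with a median of -0.02. The adhesion molecules Pecam1 and Cdh5 were 1.21-fold and 1.31-fold higher and the receptor Kdr 1.02-fold higher, and Vwf was the one gene beyond 2-fold, 9.42-fold higher.

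Genes of innate immune cells were higher. Of 19 macrophage genes 16 were higher by at least 2-fold and 0 lower (median 3.17). The lysozyme gene Lyz2 stood at -2.69 and 2.23, 30.1-fold higher, Adgre1, a surface receptor of mature macrophages, stood at -1.52 and 1.45, 7.86-fold higher, and Gpnmb, a gene of lipid-loaded macrophages, was at least 179.8-fold higher. Of 15 neutrophil genes 9 were higher and 1 lower (median 1.65), with S100a8 and S100a9 7.87-fold and 7.80-fold higher but Ly6g, which defines the mature cell, within 2-fold. Lymphocyte genes differed less, beside shares over all genes compared of 19.2% at least 2-fold higher and 13.9% lower. Of 12 T cell genes 3 were higher and 3 lower (median 0.42), Cd3e was within 2-fold, and Cd8a and Cd8b1 were not well above background on either array. Of the B cell genes 8, Ms4a1 among them, were not well above background on either array. The joint list of cytotoxic and NK cells was higher in 9 of 13 cases (median 1.30). Of the 13 values 8 are bounds, and the NK cell receptor gene Klra8 was at least 117.9-fold higher.

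Genes of antigen presentation were higher. Of 14 MHC class I pathway genes 13 were higher by at least 2-fold and 0 lower (median 2.94), and their share of the summed signal was 0.0631% at P0 and 0.446% in the transplant. H2-K1 stood at 2.04 and 6.23, 18.2-fold higher (its probes ranged from 1.89 to 4.19), and H2-D1 was 17.1-fold higher, though the near-identical copies of this family can bind the same probe. The light chain B2m was 5.70-fold, the peptide transporter subunit Tap1 5.42-fold and the immunoproteasome subunits Psmb8 and Psmb9 11.9-fold and 15.7-fold higher. Nlrc5, which switches on class I genes, was 37.8-fold higher. Of 10 class II genes 7 were higher, and Cd74, the invariant chain, stood at -2.37 and 4.85, 148.7-fold higher.

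Interferon response genes, which cells switch on through STAT and IRF factors, were higher in 26 of 30 cases and lower in 0 (median 2.07). The guanylate-binding protein Gbp2 stood at -2.71 and 1.71, 21.4-fold higher, and Ifit1, which binds viral RNA, stood at -4.69 and -1.25, 10.8-fold higher. Irgm1, an immunity-related GTPase, was 2.37-fold higher, and Isg15, a ubiquitin-like modifier, was within 2-fold (1.93-fold higher). The probes of Xaf1, which promotes cell death, disagreed, from -5.23 to 2.75, and it counts among the 26 by its brightest probe. Because most of the list differed in the same direction, the promoters of 4 of its genes are shown, among them that of Isg15, which is not one of the 26. The core of the interferon-stimulated response element, GAAA, any 2 bases and GAAA, was searched on both strands in the 250 bases before the gene start of the RefSeq promoter table (GRCm38.p6). Of the 30 genes 21 had a promoter in that table, and 11 of these (52.4%) held the core, against 3.46% of all genes in it. The list was made of genes known to respond to interferon, so this share says nothing about the arrays. The 120 bases before the start of 4 such genes follow, 5′ to 3′ on the strand of the gene, with every match in capitals, where overlapping matches run together and a pair of TTTC is the core on the other strand:
Gbp2 (chr3:142620543-142620662, plus strand): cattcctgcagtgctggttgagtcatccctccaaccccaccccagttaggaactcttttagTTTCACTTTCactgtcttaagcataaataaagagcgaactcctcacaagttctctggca
Ifit1 (chr19:34640769-34640888, plus strand): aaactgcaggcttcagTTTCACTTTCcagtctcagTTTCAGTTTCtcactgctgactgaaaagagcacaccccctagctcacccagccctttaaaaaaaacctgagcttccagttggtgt
Irgm1 (chr11:48871421-48871540, minus strand): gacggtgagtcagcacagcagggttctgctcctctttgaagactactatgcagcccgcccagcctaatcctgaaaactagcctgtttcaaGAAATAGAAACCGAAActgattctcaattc
Isg15 (chr4:156200819-156200938, minus strand): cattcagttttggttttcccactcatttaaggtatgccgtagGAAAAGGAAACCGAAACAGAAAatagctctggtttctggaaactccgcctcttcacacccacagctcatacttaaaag

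Isg15 held 3 overlapping matches, Ifit1 and Irgm1 held 2 each and Gbp2 held 1. The 11 genes with the core differed by 0.14 to 4.42 log2 units (median 1.48), and the 10 genes without it by -0.41 to 2.75 (median 1.94). The value of 2.75 was that of Xaf1, whose probes disagreed. In the class I list 2 of 12 promoters held the core, those of B2m and H2-T23. The site AAGGTCA, which steroidogenic factor 1 is known to bind, was found in 2 of 11 genes of the steroid synthesis list. These were Akr1b7 and Sult1e1, and 4.7% of all genes in the promoter table held the site. The hepatocyte nuclear factor 1 motif, GTTAAT, any base and ATTAA, was in none of 16 proximal tubule transporter genes and none of 22 enzyme genes. Only 0.074% of all genes in the table held it, so lists of this size cannot show a lack of the motif. A match is a description of the letters in this window and was not tested as a binding site.

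Chemokines, complement and acute phase genes were higher along with the immune lists. Of 23 chemokine genes 22 were higher by at least 2-fold and 0 lower (median 3.72). Ccl8, which attracts monocytes, was not well above background at P0 and stood at 4.18 in the transplant, at least 1170-fold higher, and Ccl5, which attracts T cells, was 36.3-fold higher. Cxcl10, an interferon-induced ligand, stood at -2.04 and 1.54, 11.9-fold higher. Of 20 complement genes 17 were higher and 1 lower (median 2.45). The central component C3 stood at -1.36 and 6.33, 206.9-fold higher. C4b was 502.1-fold higher, though its probe may also bind the near-identical C4a, and C1qa, a macrophage product, was 9.48-fold higher. Cfi, the protease that inactivates C3b, was the lower one, 2.19-fold. Cfd counts in this list and among the adipocyte genes.

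Of 22 genes of kidney injury and the acute phase 16 were higher and 1 lower (median 2.10). Havcr1, the injury molecule of the proximal tubule, was close to equal at -5.46 and -5.48. Lcn2, an iron-binding protein of injured tubules and neutrophils, was 4.29-fold and haptoglobin (Hp), which fat also makes, 103.2-fold higher. The cytokine Il1b was at least 113.8-fold and the adhesion molecule Vcam1 3.58-fold higher. The serum amyloid genes, near-identical copies in part, went apart, with Saa3 at least 41.6-fold higher, Saa1 within 2-fold and Saa2 15.5-fold lower. Of 15 hypoxia and glycolysis genes 6 were lower and 2 higher. Egln3, which senses oxygen, was 6.16-fold and the glucose transporter Slc2a1 2.93-fold lower, and Pfkfb3 was 6.09-fold higher. Stress and immediate early genes, which can react to handling of tissue, were within 2-fold in 10 of 15 cases and higher in 5, with Fos 5.81-fold higher. Tissue handling is not given in the sources used here, and its part in these values was not tested.

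Fatty acid oxidation genes were higher in 16 of 22 cases and lower in 1 (median 1.62). Pdk4, which spares glucose, was 42.4-fold higher, the muscle and fat form Cpt1b of carnitine palmitoyltransferase 14.5-fold and Acadvl, the first enzyme for very long chains, 5.08-fold higher. The liver and kidney form Cpt1a was within 2-fold, and Cyp4a10, a fatty acid hydroxylase of the proximal tubule, was 4.69-fold lower. Of 22 subunits of the respiratory chain and ATP synthase 19 were within 2-fold (median 0.54). The 3 higher ones were the forms of muscle and brown fat, Cox8b, Cox7a1 (20.0-fold) and Cox6a2 (at least 5.89-fold).

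Endocrine genes of the kidney were lower in 8 of 14 cases and higher in 2 (median -1.10). Renin (Ren1) stood at 0.48 and -1.42, 3.72-fold lower. The vitamin D enzymes Cyp27b1 and Cyp24a1, which activate and degrade it, were at least 22.3-fold and at least 28.9-fold lower, and Cyp2r1, the liver enzyme of the same pathway, was 4.26-fold higher. Claudins, the proteins of tight junctions, were lower in 6 of 12 cases and higher in 0. Cldn6 of fetal epithelia was 22.8-fold and Cldn2 of the leaky proximal tubule 3.99-fold lower. Conjugation enzymes were divided, 6 of 17 higher and 6 lower, with Sult1d1 35.04-fold lower and Gstt1 15.6-fold higher.

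Secreted signals also differed by member. Over all genes compared, 19.2% were at least 2-fold higher and 13.9% lower. The higher counts of the Wnt and retinoid lists were near the first share. Of the Wnt genes 6 of 24 were higher and 8 lower (median -0.17). The inhibitor Dkk1 was at least 64.4-fold lower and Wnt7b of the collecting duct 5.78-fold lower, and the inhibitor Sfrp4 was 113.8-fold higher. Of the BMP and TGF-beta list 7 of 20 were higher and 2 lower. Bmp7, which keeps progenitors alive, was 3.54-fold lower, the activin antagonist Fst was 10.01-fold higher, and Tgfb1, Tgfb2 and Tgfb3 were within 2-fold. Among the growth factors 9 of 27 were higher and 6 lower: Nrg4, a brown fat product, was at least 84.8-fold and Fgf7 14.97-fold higher, Vegfa was within 2-fold, and the probes of Igf1 disagreed, from -0.20 to 3.73. In the retinoid list 3 of 18 were higher and 8 lower, with Rbp4, the retinol carrier of liver and fat, 27.4-fold higher.

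The levels on the 3 other arrays place these values. The 8-week kidney lay on the slide of the P0 kidney and 4-week transplant. The E13.5 kidney and 2-week transplant lay on the other slide, so for these a difference from the other 3 may hold one between slides. The median level of the proximal tubule transporters was -6.64 at E13.5, -0.17 at P0, 4.56 in the 8-week kidney, -1.61 in the 2-week and -3.06 in the 4-week transplant. The cell cycle list stood at 3.08, 2.12, -3.68, -0.16 and -0.88 in the same order. Both medians of the 4-week transplant were below that of P0. The adipocyte list had median levels of -2.63, -2.02 and -1.79 in the 3 kidneys and 3.37 and 5.02 in the transplants. The steroid synthesis list stood at -3.14, -3.0 and -3.92 in the kidneys, -3.11 in the 2-week transplant and 2.66 in the 4-week transplant. Star was at -6.15 and Ttr at -0.52 in the 2-week transplant, and in the steroid synthesis, choroid plexus and urothelial lists the 4-week array had the highest median of the 3 arrays on its slide. The choroid plexus list was at -1.78 and the urothelial list at -2.98 in the 2-week transplant, against 3.17 and 1.48 at 4 weeks. The MHC class I list was at -1.76, 0.78 and 1.94 in the kidneys and 3.25 and 3.47 in the transplants. Cyp2e1, low at P0, was at 7.83 in the 8-week kidney and 5.71 in the 4-week transplant.

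**Figure D3:**
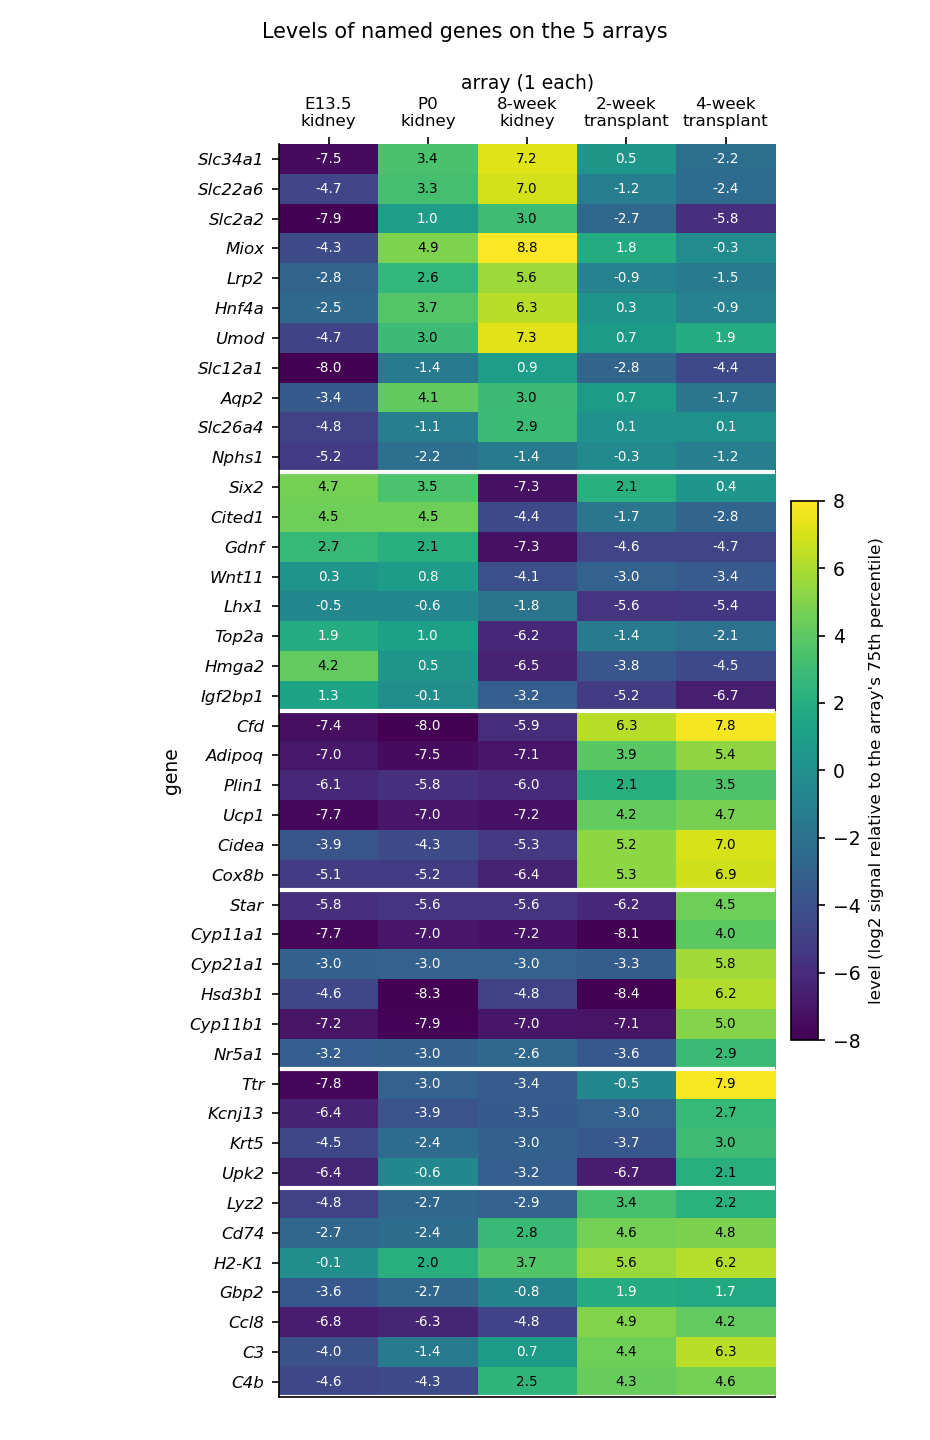
Level (log2 signal relative to the array's 75th percentile) of 42 named genes on the 5 arrays, 1 array per column; white lines separate, from the top, nephron, fetal kidney and growth, fat, adrenal cortex, choroid plexus and urothelium, and immune genes. The fat genes lie between 2.08 (Plin1) and 7.81 (Cfd) in the transplants, and Star, Cyp11a1, Cyp11b1 and Ttr are brighter in the 4-week transplant than in the P0 and 8-week kidneys of the same slide.

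Other probes of the same gene gave a check within the 2 arrays. Of 209 genes at least 4-fold higher with another measurable probe, all other probes pointed the same way in 189 (90.4%) and were at least 2-fold higher in 164 (78.5%). Of 128 lower genes these were 115 (89.8%) and 99 (77.3%). Over 5517 other probes of 4471 genes the median gap to the probe used was 0.25 log2 units. For the phosphate transporter Slc34a1 the other probe gave -5.29 against -5.61. The probes share the RNA and the labelling, so their agreement does not stand in for a second animal. The share of calls varied with the mean level. From the lowest to the highest quartile, 8.36%, 9.35%, 5.7% and 3.95% of genes were at least 4-fold higher and 4.27%, 5.95%, 3.87% and 1.95% at least 4-fold lower, so that the second quartile had most calls and the brightest quartile fewest in both directions.

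**Figure D4:**
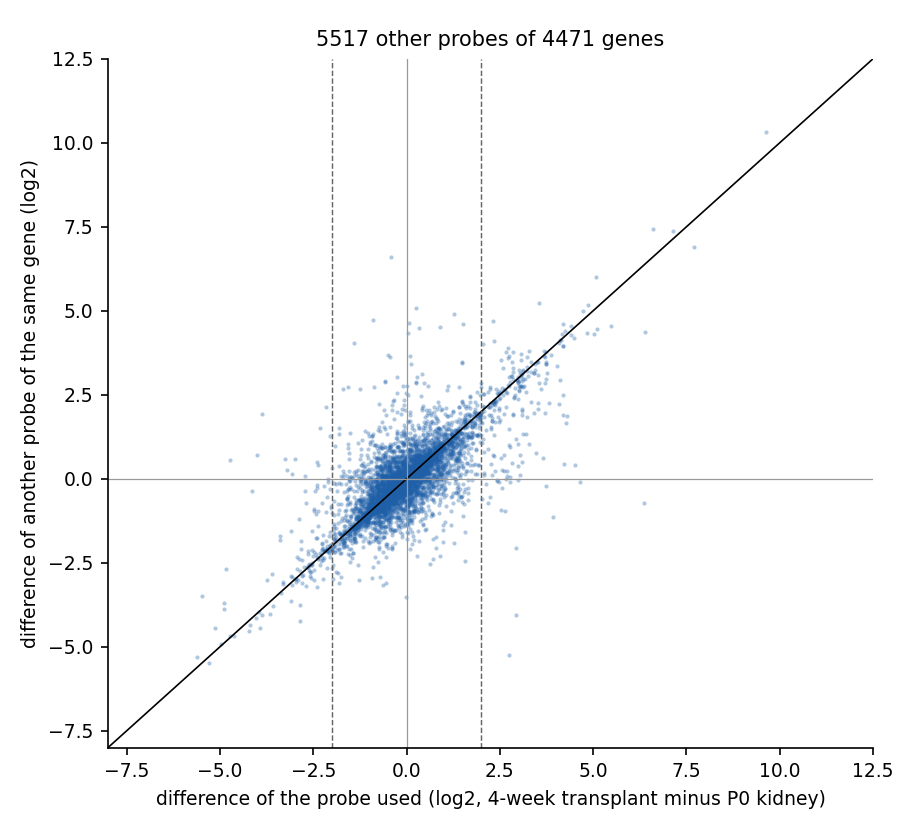
Log2 difference of the probe used for a gene (x axis) and of every other measurable probe of the same gene (y axis), 5517 probes of 4471 genes; the solid line marks equal differences and the dashed lines 4-fold. Most points lie along the line, with a median gap of 0.25 log2 units, and some probes of called genes lie near 0.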

How the data were processed

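RNA was hybridised to one-colour Agilent arrays, 1 per group, after column purification and Cy3 labelling, per the labels' protocols. The scanner files deposited by the authors hold each spot's intensity after background subtraction, with its quality flags, per the file headers. The scanner software was Agilent Feature Extraction 10.7.3.1, per the submitters' processing notes. The gene table deposited by the authors holds log2 values centred on each gene's median. Its title names a 75th percentile shift, but 99.4% of its values lay within 0.01 of unshifted values and 18.2% of shifted ones. It served for probe names and as an alternative.

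Each array's log2 intensities were set against its 75th percentile over 43020 spots that were not controls. Outlier spots of any array were dropped. Replicate spots were averaged, and a gene was read from its brightest probe over the 5 arrays. Among 39414 probes, 31781 were named through the table's gene identifier and RefSeq (GRCm38.p6), 2026 by the authors' symbol, 19 by accession, and 5588 stayed unnamed. Where a bound would have reversed a difference, 0 was used.

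Counts used 4-fold for all genes and 2-fold for members of 69 gene lists (1077 genes, 1065 matched, 988 compared), beside the same counts over all genes. The members and lists were chosen with earlier results of these data known. Genes were named by rule: the 15 largest differences in each direction measured on both arrays, the 15 largest bounds, and list members furthest apart, against their list or defining a cell type. Not every gene the rule allows is printed. Some genes are not reported here. No test was run, since each group had 1 array. Alternatives were normexp background correction (limma 3.58.1, R 4.3.3), background from negative control spots, quantile normalization, other scalings, the authors' table, the mean over probes, other background filters and thresholds of 2-fold and 8-fold. The other steps used Python 3.11.15, numpy 2.4.6 and pandas 2.3.3, and were tested on simulated data. The number of arrays limits the precision.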

Additional observations from a re-analysis of the deposited data

Results flagged for a closer look

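Outside the comparison of named genes, 2982 probes that carry no gene name here were well above background on either array. Of these, 243 (8.15%) were at least 4-fold higher in the 4-week transplant and 71 (2.38%) at least 4-fold lower than in the P0 kidney. Among named genes the shares were 8.66% and 4.36%, so the unnamed probes were not called more often. They are signal in data that the gene comparison does not use. Their median difference was -0.20.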

How the results depend on the processing

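The 1597 higher and 804 lower genes became 1000 and 495 with normexp background correction, 3538 and 2556 with the 2-fold threshold, and 758 and 305 with the 8-fold threshold. The other settings gave 1109 to 2156 higher and 650 to 1104 lower genes. Of the higher genes, 62.6% stayed past 4-fold with normexp and 81.2% with scaling to the median, and of the lower genes 61.4% and 100%. None of the called genes turned its direction under another background correction or scaling. Scaling to another percentile moves every difference by the same small amount, and a bound that would reverse is set to 0. For these the lack of reversals was fixed in advance and is no check of the calls. With the authors' values, 2 higher genes turned, and with the mean over probes 4 higher and 3 lower genes did. Over 253 genes named in the text, the one difference of at least 4-fold that reversed was that of Xaf1, at 2.75 from its brightest probe, -0.42 in the authors' values and -1.24 as the mean over its probes. No list median of at least 2-fold reversed in any setting run, which for the percentile scalings was likewise close to fixed in advance. Medians that changed sign in at least 1 setting were those of the intercalated cell, endothelial, bone, cartilage, skeletal muscle, liver, erythroid, retinoid and sex-linked lists, all below 1 in size. The cause of these shifts was not tested. No paired analysis was possible because each group had 1 array. Leaving out an array was not possible either, and nothing here measures variation between animals or labellings. A dim gene has only a bound, which depends on the lowest level called above background.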

Other observations

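Gene families were chosen by the start of their symbol after their values were seen, so their counts are description and lend the lists no support. Some members, such as Gbp2, Klra8, Klk1 and Hoxd11, already count in the lists above. Among all genes compared, 19.2% were at least 2-fold higher and 13.9% at least 2-fold lower. All 11 major urinary protein genes (Mup), which liver makes and fat and glands express in part, were at least 2-fold higher in the transplant, with a median difference of 6.13 and a range from 1.38 (Mup6) to 8.48 (Mup19). These genes are near-identical copies, so a transcript of one may bind probes of others, and their values are not independent. Of 14 Ly49 receptor genes of NK cells (Klra), likewise near-identical, 14 were at least 2-fold higher (median 3.67), and 2 more were not well above background on either array. Of 20 kallikrein genes (Klk) 11 were at least 2-fold higher and 1 lower. This family also holds close copies, such as Klk1b24, so these values may not be independent either. The interferon-induced Gbp family was higher in 8 of 10 cases (median 2.75), and 7 of 12 Toll-like receptor genes were higher and 0 lower.

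On the lower side stood the Hoxd symbols, 9 of 9 at least 2-fold lower (median -2.01) with Hoxd12 at -4.08. They include the opposite-strand transcript Hoxd3os1, at -1.12. Of the glucuronosyltransferases (Ugt) 9 of 11 were lower and 1 higher.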
